A study of Homo sapiens with 36 samples.

Results

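The 10 genes described here encode the enzymes that build serine from a glycolytic intermediate and pass its carbon through folate. They were chosen by name, with earlier results of these data known, so they are not an independent set. PHGDH, PSAT1 and PSPH stand for serine synthesis. SHMT2, MTHFD2, MTHFD2L, MTHFD1L and ALDH1L2 stand for the mitochondrial folate arm, and SHMT1 and MTHFD1 for the cytosolic arm. All 10 were found among the 57665 rows of the deposited count table, each with 1 row, and all 10 were among the 19043 genes with enough counts to be tested. RNA sequencing was done on U2OS cells, a human osteosarcoma line, that stably express Dmr-PERK, the eIF2α kinase domain of mouse PERK joined to a DmrB dimerization domain. The groups were ATF4 knockout (KO) cells with the ligand AP20187 (the dimerizer) for 2, 4, 8, 16 or 24 h, WT cells with the dimerizer for the same times, then untreated KO cells and untreated WT cells at 0 h. This makes 12 groups of 3 libraries, 36 in all. Every group carries Dmr-PERK. The ligand dimerises the kinase, the kinase phosphorylates eIF2α, and the integrated stress response follows. The labelled dose carries no unit. Nothing in the labels tells if the KO line is 1 clone or if the 3 wells per group were grown separately. A p value therefore reflects the scatter of wells, which may be technical. Time-matched untreated wells and cells lacking Dmr-PERK are not analysed here, so effects of the kinase, of the ligand and of time in culture cannot be told apart. The medium was supplemented with non-essential amino acids, per the labels.

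Serine is made from 3-phosphoglycerate in a short chain of steps: PHGDH oxidises it, PSAT1 adds an amino group from glutamate and PSPH removes the phosphate. Serine hydroxymethyltransferase then moves a carbon of serine to tetrahydrofolate and leaves glycine, with SHMT2 doing so in mitochondria and SHMT1 in the cytosol. In mitochondria MTHFD2 or MTHFD2L oxidises that unit and MTHFD1L releases it as formate, while ALDH1L2 oxidises it to carbon dioxide with production of NADPH. In the cytosol the single trifunctional protein MTHFD1 takes formate back into folate for purine and thymidylate synthesis. ATF4 is a transcription factor whose translation increases when eIF2α is phosphorylated, and PHGDH, PSAT1, PSPH, SHMT2 and MTHFD2 are known among its targets in human and mouse cells.

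Total counts per library ran from 8608783 to 16265056, and for 36 of 36 libraries the most correlated library was of the same group. Levels are CPM, a gene's counts scaled to a common library size by TMM, given as mean ± SD with n = 3. Changes are log2 fold changes ± SE from edgeR's quasi-likelihood test over all tested genes, and a gene is said to rise or fall at a Benjamini-Hochberg adjusted p under 0.05. The 3 untreated KO columns of the deposited TPM table did not match the counts of the same name, whereas the other 33 columns did, so the results rest on the counts. Among bone and mesenchymal markers VIM, COL1A1, SPARC and RUNX2 were well above 0 in every library, while COL1A2 reached at most 1.12 CPM. The epithelial markers EPCAM and CDH1 reached at most 5.60 and 8.35 CPM and KRT19 at most 0.173 CPM, and the blood marker PTPRC reached at most 1.08 CPM.

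ATF4 itself, the gene knocked out per the labels, still gave reads in the KO. It had 259, 274 and 265 CPM in untreated KO libraries, against 309, 323 and 321 CPM in untreated WT libraries, and 718, 712 and 758 CPM in KO libraries at 24 h, against 688, 704 and 712 CPM in WT libraries at 24 h. KO was lower than WT at 0 h without overlap. At 24 h the lowest KO library, at 712.2 CPM, was barely above the highest WT library, at 711.7 CPM. That difference in level was not tested. The log2 change at 24 h was 1.46 ± 0.03 in KO and 1.14 ± 0.03 in WT. Reads summed over the gene do not show whether the protein is made, so this gene checks neither the knockout nor the labels.

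**Figure D1:**
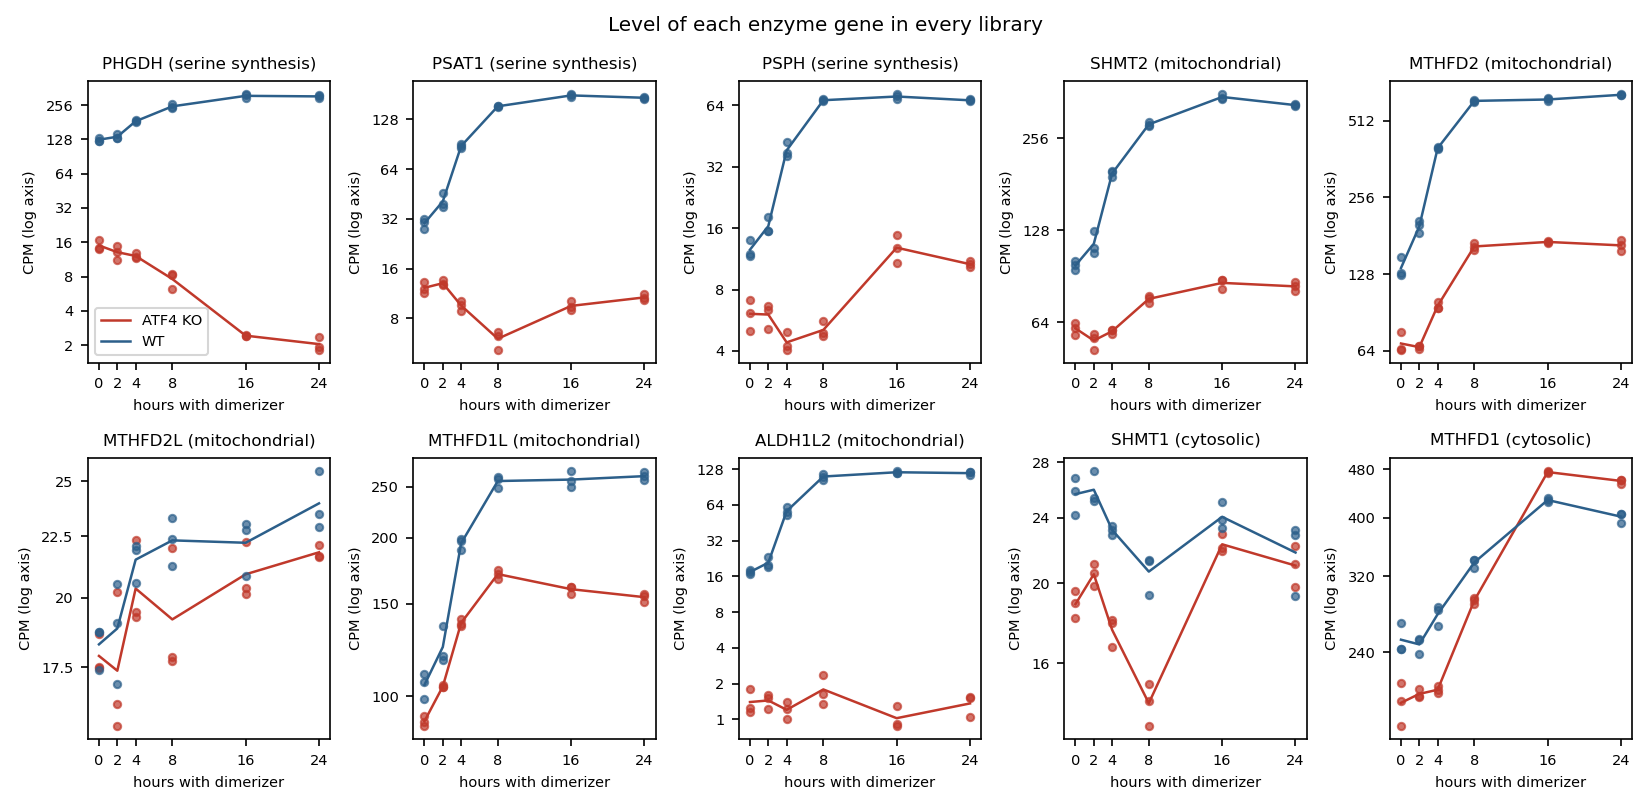
Level of each of the 10 genes (CPM, log axis, scaled separately per panel) against hours with dimerizer; points are single libraries and lines join group means, in red for ATF4 KO and blue for WT. PHGDH in KO goes down to 2.04 CPM at 24 h while WT stands at 305 CPM, and MTHFD1 is the panel where the KO line ends above the WT line.

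Promoter sequence is shown for 5 genes, all of which rose in WT cells at 24 h: PHGDH, PSAT1, MTHFD2, MTHFD1L and the cytosolic MTHFD1. Of the 10 genes, 7 had at least 1 window in the RefSeq table (GRCh38.p14), and the windows printed are the 250 bases before a RefSeq start, which can differ from the GENCODE 29 start, 5′ to 3′ on the gene's strand. They lie at chr1:119711684-119711933 (+) for PHGDH, chr9:78296875-78297124 (+) for PSAT1, chr2:74198365-74198614 (+) for MTHFD2, chr6:150866236-150866485 (+) for MTHFD1L and chr14:64388103-64388352 (+) for MTHFD1. Capitals mark the letters CCAAT, the core of the NF-Y box, and TGATGNAA, the core of the composite element that ATF4 and C/EBP partners are known to bind, with both strands searched. The motifs do not overlap in these windows.
PHGDH: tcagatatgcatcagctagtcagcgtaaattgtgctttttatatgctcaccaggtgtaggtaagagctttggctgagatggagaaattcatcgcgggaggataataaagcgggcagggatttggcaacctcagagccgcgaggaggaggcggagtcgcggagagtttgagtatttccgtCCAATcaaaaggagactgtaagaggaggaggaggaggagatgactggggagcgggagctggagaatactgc
PSAT1: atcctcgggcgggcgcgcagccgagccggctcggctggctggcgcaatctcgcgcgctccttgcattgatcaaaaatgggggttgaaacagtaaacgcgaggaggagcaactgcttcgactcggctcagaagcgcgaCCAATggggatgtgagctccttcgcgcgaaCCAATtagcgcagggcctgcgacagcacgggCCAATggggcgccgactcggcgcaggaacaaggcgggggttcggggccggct
MTHFD2: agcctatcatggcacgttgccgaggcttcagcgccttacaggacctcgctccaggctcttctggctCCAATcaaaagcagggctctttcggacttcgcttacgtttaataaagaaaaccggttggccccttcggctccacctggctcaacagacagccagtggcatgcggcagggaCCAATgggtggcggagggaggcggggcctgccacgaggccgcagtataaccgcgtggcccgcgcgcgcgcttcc
MTHFD1L: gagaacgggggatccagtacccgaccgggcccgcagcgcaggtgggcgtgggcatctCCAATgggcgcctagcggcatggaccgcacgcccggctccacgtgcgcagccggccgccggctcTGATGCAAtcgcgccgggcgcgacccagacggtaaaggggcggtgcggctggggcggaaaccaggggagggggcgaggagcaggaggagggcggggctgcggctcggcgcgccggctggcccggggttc
MTHFD1: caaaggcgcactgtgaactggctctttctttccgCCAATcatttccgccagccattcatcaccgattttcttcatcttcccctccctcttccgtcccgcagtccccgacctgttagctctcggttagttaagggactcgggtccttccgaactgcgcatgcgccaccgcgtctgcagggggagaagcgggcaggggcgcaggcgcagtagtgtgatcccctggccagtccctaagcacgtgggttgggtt
Of these 5 windows, TGATGNAA occurred only in that of MTHFD1L, beginning 129 bases before the start, and of the 4 MTHFD1L windows 1 other held the same copy, while the remaining 2 held none. It was in 3.14% of all 35116 RefSeq windows of this length. CCAAT occurred 3 times in the PSAT1 window, at 113, 83 and 52 bases before the start, 2 times in the MTHFD2 window and 1 time in each of the others, against a share of 32% of all windows with at least 1. The SHMT1 window held 2 copies of CCAAT, on opposite strands, and no TGATGNAA, and neither MTHFD2L window held either motif. A match is a run of letters and not a measured site, and its absence here says nothing of sequence outside the window.

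Before any dimerizer, 9 of the 10 genes were lower in KO than in WT cells and none was higher, where 11.9% of all tested genes were lower and 11.6% higher. The median log2 difference of the 10 was −0.85, against −0.00 over all tested genes. The deficits were uneven. They were deepest for ALDH1L2 at −3.58 ± 0.15 and PHGDH at −3.09 ± 0.06, intermediate for PSAT1 at −1.30 ± 0.08, PSPH at −1.08 ± 0.12, MTHFD2 at −1.0 ± 0.05 and SHMT2 at −0.69 ± 0.05, and shallow for SHMT1 at −0.44 ± 0.07, MTHFD1 at −0.35 ± 0.04 and MTHFD1L at −0.23 ± 0.04. MTHFD2L, at −0.04 ± 0.09 with a 95% interval of −0.21 to 0.13, did not pass the test. In bulk RNA, fewer cells that express a gene and less RNA per cell cannot be told apart.

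With dimerizer WT cells raised nearly all of the set from 4 h. In KO cells the counts at 2, 4 and 8 h were near the shares over all tested genes. Of the 10 genes, 1 rose in KO at 2 h against 9.84% of all tested genes, 2 at 4 h against 22%, 4 at 8 h against 30.7%, 7 at 16 h against 33% and 6 at 24 h against 32.4%. The number that fell in KO was 0 at 2 h against 8.51%, 3 at 4 h against 20.3%, 3 at 8 h against 31.1%, 2 at 16 h against 32.7% and 1 at 24 h against 33%. The median log2 change of the 10 in KO at 24 h was 0.38, against −0.03 over all tested genes. In WT 6 rose at 2 h, against 12.2% of all tested genes, then 9 at 4 h against 23.6%, 9 at 8 h against 29.7%, 9 at 16 h against 33.7% and 9 at 24 h against 33%. None fell at 2, 4 or 16 h, where 10.4%, 21.1% and 32.8% of all tested genes fell. SHMT1 fell at 8 and 24 h, where 29.6% and 32.4% of all tested genes fell. The median log2 change of the 10 in WT at 24 h was 1.53, against −0.02 over all tested genes. Every time of a genotype is set against the same 3 untreated libraries, so the 5 comparisons are not independent of each other.

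**Figure D2:**
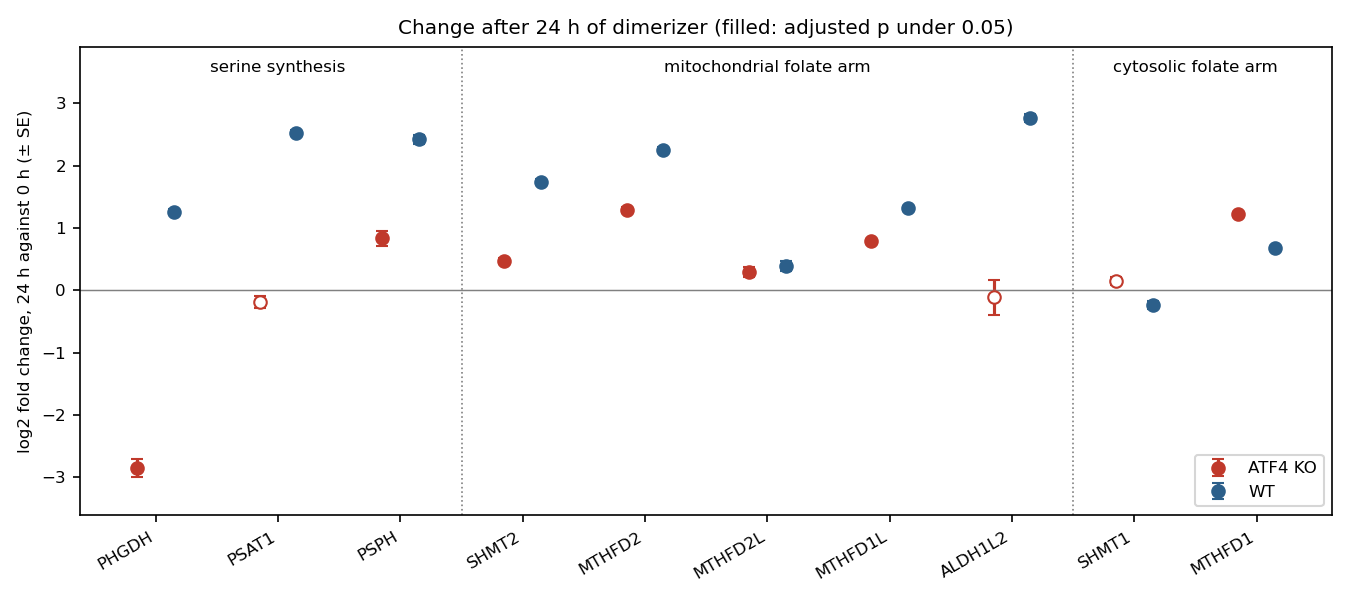
Log2 change at 24 h of dimerizer against 0 h for each gene (± SE, 3 libraries against 3), ATF4 KO in red left of WT in blue; filled points passed the test and dotted lines part serine synthesis, mitochondrial and cytosolic genes. The widest gap is that of PHGDH, at −2.85 in KO and 1.26 in WT, and the narrowest is that of MTHFD2L.

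PHGDH, which commits carbon to serine, moved in opposite directions in the genotypes. It had 1.82, 1.95 and 2.36 CPM in KO libraries at 24 h, against 312, 306 and 297 CPM in WT libraries at 24 h. The untreated libraries had 14.1, 16.8 and 14.1 CPM in KO and 125, 125 and 132 CPM in WT. No KO library at any time reached a WT library, and within each genotype the 24 h and 0 h libraries did not overlap. PHGDH in KO averaged 15 ± 1.54 CPM at 0 h, 13.1 ± 1.94 at 2 h, 12.1 ± 0.583 at 4 h, 7.62 ± 1.25 at 8 h, 2.43 ± 0.0313 at 16 h and 2.04 ± 0.284 at 24 h. That is a fall of the transcript at each time from 4 h. The log2 changes in KO were −0.30 ± 0.10 at 4 h, −0.97 ± 0.11 at 8 h, −2.62 ± 0.15 at 16 h and −2.85 ± 0.15 at 24 h, where the edgeR adjusted p was 1.1e-20. In WT they were 0.54 ± 0.04, 0.97 ± 0.04, 1.28 ± 0.04 and 1.26 ± 0.04 at the same times, with an edgeR adjusted p of 5.8e-28 at 24 h. The WT level was 8.47 times the KO level at 0 h and 149 times the KO level at 24 h. The KO level at 24 h rested on only 80 counts over 3 libraries. The KO fall at 4 h was not called without untreated KO replicate 2 (adjusted p = 0.12 in edgeR) or without 4 h KO replicate 1 (adjusted p = 0.079 in edgeR).

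PSAT1, the aminotransferase, dipped and then partly returned in KO and rose early in WT. It had 6.26, 5.17 and 6.67 CPM in KO libraries at 8 h, against 153, 154 and 155 CPM in WT libraries at 8 h. Without dimerizer it had 13.3, 11.5 and 12.1 CPM in KO libraries and 30.8, 32.0 and 27.9 CPM in WT libraries. The lowest WT library at any time was above the highest KO library at any time. In KO PSAT1 fell by 0.36 ± 0.10 at 4 h, by 1.01 ± 0.11 at 8 h and by 0.37 ± 0.10 at 16 h on the log2 scale. At 24 h the KO value was −0.18 ± 0.10, which did not pass the test (edgeR adjusted p = 0.094). In WT the log2 change was 0.45 ± 0.06 at 2 h, 1.55 ± 0.05 at 4 h, 2.35 ± 0.05 at 8 h, 2.57 ± 0.05 at 16 h and 2.52 ± 0.05 at 24 h. Without 4 h KO replicate 1 the fall at 4 h was not called (edgeR adjusted p = 0.052), and without untreated KO replicate 2 the value at 24 h was called (edgeR adjusted p = 0.050, value −0.24).

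PSPH, the phosphatase that completes serine, ended above its untreated level in KO and rose from 2 h in WT. It had 12.8, 14.9 and 10.8 CPM in KO libraries at 16 h, against 70.7, 72.4 and 68.7 CPM in WT libraries at 16 h. The untreated libraries had 6.12, 7.10 and 5.03 CPM in KO and 14, 11.7 and 11.9 CPM in WT. The KO libraries at 16 h were above all untreated KO libraries and overlapped the untreated WT libraries. The log2 change in KO was −0.42 ± 0.16 at 4 h, 1.1 ± 0.12 at 16 h and 0.83 ± 0.12 at 24 h, and all of these passed, with edgeR adjusted p values of 0.027, 1.6e-10 and 1.1e-07. At 8 h it was −0.24 ± 0.15, which did not pass. In WT it was 0.38 ± 0.09 at 2 h, 1.60 ± 0.08 at 4 h, 2.42 ± 0.08 at 8 h, 2.48 ± 0.07 at 16 h and 2.42 ± 0.08 at 24 h. The KO fall at 4 h rested on 138 counts over 3 libraries. It was not called without untreated KO replicate 1 or 2 or without 4 h KO replicate 2 or 3 (edgeR adjusted p up to 0.18), and PSPH was called lower at 8 h without untreated KO replicate 3 (value −0.38, edgeR adjusted p = 0.039).

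The response of KO cells differed from that of WT cells for all 3 serine synthesis genes at 4, 8, 16 and 24 h. The difference, KO change minus WT change on the log2 scale, grew steadily for PHGDH: −0.84 ± 0.11 at 4 h, −1.94 ± 0.12 at 8 h, −3.90 ± 0.15 at 16 h and −4.11 ± 0.15 at 24 h. For PSAT1 it was widest at 8 h, at −3.36 ± 0.12, and −2.71 ± 0.11 at 24 h. For PSPH it was also widest at 8 h, at −2.66 ± 0.17, and −1.58 ± 0.15 at 24 h. At 2 h the differences were −0.25, −0.35 and −0.36 and none passed (edgeR adjusted p = 0.60, 0.29 and 0.65).

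**Figure D3:**
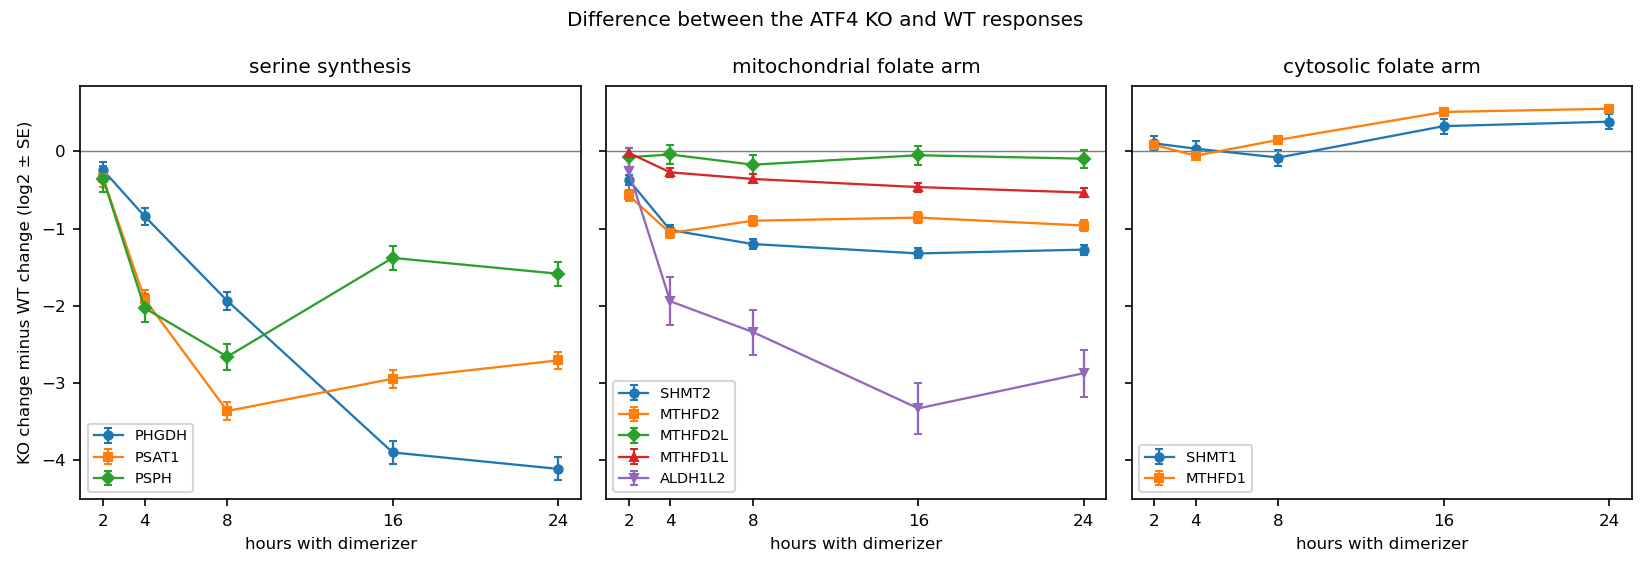
KO change minus WT change on the log2 scale (± SE) against hours with dimerizer, for serine synthesis, mitochondrial and cytosolic genes, with a line at 0 for equal responses. PHGDH goes down to −4.11 at 24 h, MTHFD2L stays close to 0 (−0.17 at 8 h is its value farthest from 0), and the cytosolic SHMT1 and MTHFD1 lie above 0 at 16 and 24 h.

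Among the mitochondrial enzymes, ALDH1L2 stayed at a very low level in KO and rose strongly in WT. It had 1.53, 1.51 and 1.04 CPM in KO libraries at 24 h, against 120.0, 120.1 and 115 CPM in WT libraries at 24 h. Without dimerizer it had 1.24, 1.15 and 1.81 CPM in KO libraries and 17.9, 16.8 and 17.5 CPM in WT libraries. All 18 KO libraries lay between 0.876 and 2.37 CPM, and all WT libraries were above them. In KO no time passed the test, and the 95% interval of the change at 24 h was −0.66 to 0.43. Counts summed over a KO group were only 32 to 69, and a change of any size within that interval remains possible. In WT the log2 change was 0.26 ± 0.08 at 2 h, 1.70 ± 0.07 at 4 h, 2.66 ± 0.06 at 8 h, 2.78 ± 0.06 at 16 h and 2.76 ± 0.06 at 24 h. The difference of the responses was −1.94 ± 0.31 at 4 h and −2.87 ± 0.31 at 24 h (edgeR adjusted p = 2.7e-05 and 3.9e-10). The WT rise at 2 h was not called without untreated WT replicate 2 or without 2 h WT replicate 3 (edgeR adjusted p = 0.054 and 0.21).

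MTHFD2, the dehydrogenase and cyclohydrolase, still rose strongly in KO cells. It had 158, 166 and 174 CPM in KO libraries at 24 h, against 647, 650.3 and 645 CPM in WT libraries at 24 h. The untreated libraries had 75.7, 64.7 and 65.0 CPM in KO and 149, 129 and 127 CPM in WT. The KO libraries at 24 h were above the untreated WT libraries and below the treated WT libraries of every time, the nearest being those at 2 h with 199, 185 and 207 CPM. In KO the log2 change was −0.04 ± 0.06 at 2 h, which did not pass, 0.50 ± 0.06 at 4 h, 1.27 ± 0.05 at 8 h, 1.33 ± 0.05 at 16 h and 1.29 ± 0.05 at 24 h. In WT it was 0.54 ± 0.04, 1.56 ± 0.04, 2.17 ± 0.04, 2.19 ± 0.04 and 2.25 ± 0.04 at the same times. The difference was already −0.57 ± 0.07 at 2 h (edgeR adjusted p = 3.8e-06) and then lay between −1.06 at 4 h and −0.86 at 16 h. Only MTHFD2 and SHMT2 of the 10 genes passed this test at 2 h, where 0.289% of all tested genes were called lower and 0.0105% higher.

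SHMT2, which splits serine in mitochondria, also rose in both genotypes, though later and less in KO. It had 80.7, 86.3 and 84.2 CPM in KO libraries at 24 h, against 325, 330.1 and 329 CPM in WT libraries at 24 h. Without dimerizer it had 61.3, 63.6 and 58.1 CPM in KO libraries and 102, 94.6 and 98.1 CPM in WT libraries. The treated KO libraries stayed below the untreated WT libraries at every time. In KO the log2 change was −0.14 ± 0.05 at 2 h and −0.02 ± 0.05 at 4 h, neither of which passed, and 0.33 ± 0.05 at 8 h, 0.50 ± 0.05 at 16 h and 0.46 ± 0.05 at 24 h. In WT it was 0.24 ± 0.04, 1.00 ± 0.04, 1.53 ± 0.04, 1.83 ± 0.04 and 1.74 ± 0.04. The difference was −0.37 ± 0.07 at 2 h (edgeR adjusted p = 0.0022) and −1.27 ± 0.06 at 24 h. With only the 4 groups of the contrast fitted, the difference at 2 h was −0.36 and was not called (edgeR adjusted p = 0.12).

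MTHFD1L, the monofunctional mitochondrial synthetase that releases formate, responded in KO from the first time measured. It had 105, 104 and 104 CPM in KO libraries at 2 h, against 119, 117 and 136 CPM in WT libraries at 2 h. The untreated libraries had 92.0, 87.7 and 89.5 CPM in KO and 110.3, 106 and 99.0 CPM in WT. Both genotypes at 2 h were above their own untreated libraries without overlap. It was the single one of the 10 genes that rose in KO at 2 h, by 0.22 ± 0.05, beside 0.24 ± 0.04 in WT. The difference at that time was −0.02 ± 0.06 with a 95% interval of −0.14 to 0.10. Later it rose in KO by 0.93 ± 0.04 at 8 h and 0.78 ± 0.04 at 24 h, and in WT by 1.29 ± 0.04 and 1.32 ± 0.04. The difference passed from 4 h, at −0.27 ± 0.06, and was −0.53 ± 0.06 at 24 h (edgeR adjusted p = 8.2e-10).

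MTHFD2L, the paralogue of MTHFD2, changed little in either genotype. It had 21.7, 22.1 and 21.6 CPM in KO libraries at 24 h, against 22.9, 25.5 and 23.5 CPM in WT libraries at 24 h. Without dimerizer it had 18.7, 17.5 and 17.5 CPM in KO libraries and 18.7, 17.4 and 18.7 CPM in WT libraries. The genotypes overlapped at 0, 2, 4, 8 and 16 h, and at 24 h KO was just below WT. At 24 h the log2 change was 0.29 ± 0.08 in KO and 0.39 ± 0.08 in WT, and both passed (edgeR adjusted p = 0.0025 and 7.5e-05). The difference did not pass at any time, and its 95% interval at 24 h was −0.33 to 0.14. Of its smaller rises, that in KO at 16 h was not called without untreated KO replicate 2 or 3 or 16 h KO replicate 3 (edgeR adjusted p up to 0.099). That in WT at 4 h was not called without untreated WT replicate 2 or 3 or 4 h WT replicate 2 or 3 (edgeR adjusted p up to 0.09).

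In the cytosolic arm MTHFD1 rose in both genotypes, and more in KO than in WT cells. It had 455, 462 and 462 CPM in KO libraries at 24 h, against 406, 406 and 392.1 CPM in WT libraries at 24 h. The untreated libraries had 214, 199 and 181 CPM in KO and 268, 244 and 243 CPM in WT. KO was below WT at 0, 2, 4 and 8 h and above it at 16 and 24 h, with no overlap at any time. In KO the log2 change was 0.57 ± 0.04 at 8 h, 1.27 ± 0.04 at 16 h and 1.22 ± 0.04 at 24 h, and the values at 2 and 4 h, 0.06 and 0.08, did not pass. Without untreated KO replicate 1 those were 0.12 and 0.13 and were called (edgeR adjusted p = 0.027 and 0.0062). In WT it was 0.14 ± 0.04 at 4 h, where the libraries overlapped the untreated ones, 0.42 ± 0.04 at 8 h, 0.76 ± 0.04 at 16 h and 0.67 ± 0.04 at 24 h. The difference was 0.51 ± 0.05 at 16 h and 0.55 ± 0.05 at 24 h (edgeR adjusted p = 9.9e-11 and 1.1e-11). At 8 h it was 0.15 ± 0.05 (edgeR adjusted p = 0.043), and that call was lost without any of 9 of the 12 libraries in turn, so it is borderline.

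SHMT1, the cytosolic counterpart of SHMT2, dipped at 8 h in both genotypes. It had 13.4, 14.4 and 15.1 CPM in KO libraries at 8 h, against 21.3, 21.3 and 19.4 CPM in WT libraries at 8 h. Without dimerizer it had 18.1, 19.5 and 18.9 CPM in KO libraries and 26.8, 25.9 and 24.2 CPM in WT libraries. All libraries at 8 h were below the untreated ones of their genotype. The log2 change at 8 h was −0.40 ± 0.08 in KO and −0.32 ± 0.07 in WT, and the difference of −0.08 ± 0.10 did not pass (95% interval −0.28 to 0.12). At 16 h SHMT1 was higher than at 0 h in KO, by 0.24 ± 0.07, and stood at −0.09 ± 0.06 in WT, which did not pass. At 24 h it was 0.15 ± 0.07 in KO, which did not pass (0.20 and called without 24 h KO replicate 2), and −0.23 ± 0.07 in WT, which did. The difference was 0.32 ± 0.10 at 16 h and 0.38 ± 0.10 at 24 h (edgeR adjusted p = 0.0087 and 0.0020). The KO level was still below WT without overlap at 16 h, and at 24 h the genotypes overlapped, with means of 21.0 CPM in KO and 21.8 CPM in WT. The WT fall at 24 h was not called without 24 h WT replicate 1 (value −0.15, edgeR adjusted p = 0.08), and the difference at 16 h was not called without untreated WT replicate 1 (value 0.27, edgeR adjusted p = 0.060). The difference at 16 h was also not called by DESeq2 (adjusted p = 0.060).

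Set side by side at 24 h, the difference of the responses was negative and called for 3 of 3 serine synthesis genes and 4 of 5 mitochondrial genes, and positive and called for 2 of 2 cytosolic genes. Of all tested genes 12.1% were called lower and 17.7% higher in that comparison. The median differences were −2.71 for serine synthesis, −0.96 for the mitochondrial arm and 0.47 for the cytosolic arm, against 0.05 over all tested genes. At 16 h the same counts were 7 lower against 11.1% of all tested genes and 2 higher against 16.7%. At 8 h they were 7 lower against 6.99% and 1 higher against 11.3%, and at 4 h 7 lower against 2.41% and 0 higher against 0.887%. At 4 h those 7 were the 3 serine synthesis genes and 4 of the 5 mitochondrial genes, MTHFD2L being the exception. SHMT1 and MTHFD1 passed together at 16 and 24 h, when the KO level was above WT for MTHFD1 but not for SHMT1.

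The paired enzymes of the arms can also be shown within single libraries, as a log2 ratio of CPM. These ratios use the same counts as the changes above, so they are no separate evidence. The size of a ratio depends on gene length, so only its movement is read. For SHMT2 over SHMT1 it was 1.86, 2.12 and 1.99 in KO libraries at 24 h, against 4.06, 3.82 and 3.84 in WT libraries at 24 h. The untreated libraries had 1.75, 1.69 and 1.61 in KO and 1.91, 1.86 and 2.01 in WT, so the untreated genotypes lay close without overlap. In KO the ratios at 24 h were above the untreated KO ratios without overlap. Over the course the KO mean was 1.68 at 0 h, 1.43 at 2 h, 1.76 at 4 h, 2.40 at 8 h, 1.94 at 16 h and 1.99 at 24 h, and the WT mean was 1.93, 2.14, 3.07, 3.77, 3.85 and 3.91. For MTHFD2 over MTHFD1 the ratio was −1.53, −1.48 and −1.40 in KO libraries at 24 h, against 0.67, 0.68 and 0.72 in WT libraries at 24 h. In KO this ratio moved to −0.83 ± 0.03 at 8 h and lay at −1.47 ± 0.06 at 24 h, with an untreated value of −1.53 ± 0.08, and the untreated and 24 h KO libraries overlapped. In WT it was 0.86 ± 0.02 at 8 h, 0.54 ± 0.03 at 16 h and 0.69 ± 0.02 at 24 h, with an untreated value of −0.90 ± 0.05. Both KO ratios thus peaked at 8 h, and so did the WT ratio of MTHFD2 over MTHFD1. The WT ratio of SHMT2 over SHMT1 had its highest mean at 24 h. Between 8 and 24 h the KO mean of MTHFD1 was 292 CPM at 8 h, 475 CPM at 16 h and 459.5 CPM at 24 h, while that of MTHFD2 was 164, 171 and 166 CPM. The KO mean of SHMT1 at those times was 14.3, 22.3 and 21.0 CPM, while that of SHMT2 was 76.2, 86.0 and 83.7 CPM.

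**Figure D4:**
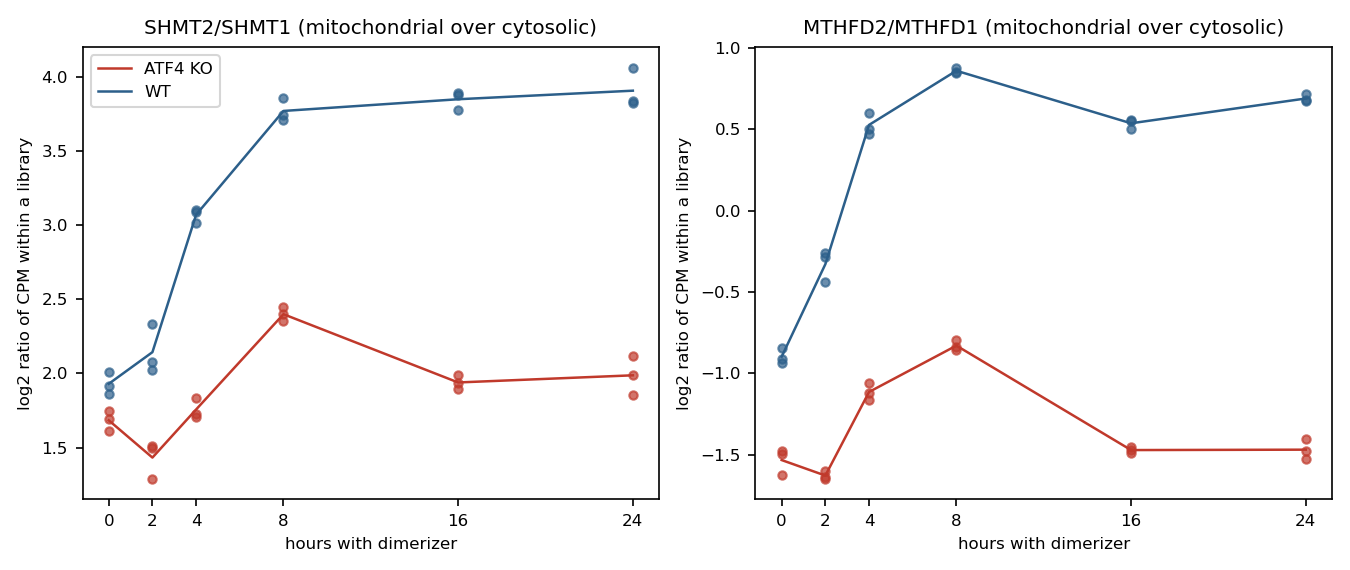
Log2 ratio of CPM within each library for SHMT2 over SHMT1 and for MTHFD2 over MTHFD1 against hours with dimerizer; points are libraries and lines join group means, ATF4 KO in red and WT in blue. Both KO ratios are highest at 8 h (2.40 and −0.83) and lower at 16 and 24 h. The WT ratio of MTHFD2 over MTHFD1 is also highest at 8 h (0.86). Both WT ratios at 16 and 24 h are well above their untreated values.

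Levels of different genes can be compared in TPM, which is per length, for the libraries whose TPM columns matched. In KO at 24 h MTHFD1 led with 295 ± 13.7 TPM, followed by MTHFD2 with 144 ± 6.63, MTHFD1L with 126 ± 4.32 and SHMT2 with 80.6 ± 2.19 TPM, none overlapping the next. In WT at 24 h the order opened with MTHFD2 at 561 ± 6.27 TPM and SHMT2 at 319 ± 7.56 TPM, and PHGDH at 267 ± 5.70 and MTHFD1 at 255 ± 14 TPM overlapped. At the low end of KO at 24 h were PSAT1 with 7.47 ± 0.505, PHGDH with 1.81 ± 0.198 and ALDH1L2 with 0.811 ± 0.252 TPM. In untreated WT cells MTHFD1 was the highest of the 10 at 171 ± 3.69 TPM, MTHFD2 and PHGDH overlapped at 116 ± 10.1 and 109 ± 2.16 TPM, and ALDH1L2 was the lowest at 4.01 ± 0.813 TPM. MTHFD2L stayed far below its paralogue, at 19.2 ± 1.08 TPM in KO and 20.7 ± 2.38 TPM in WT at 24 h.

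Across the 12 group means of log2 CPM, which share their libraries and scaling, the 10 genes fell on a range of patterns. As a description with no test, Pearson's r was 0.98 between PSAT1 and ALDH1L2, 0.98 between PSPH and SHMT2 and 0.97 between SHMT2 and MTHFD2. PHGDH had r of 0.91 with PSAT1, 0.46 with MTHFD1L and −0.03 with MTHFD1. Over the same 12 means and 16176 genes, the genes most like each member were NUPR1, SLC35A5 and ALDH2 for PHGDH (r of 0.995 for NUPR1), SLC6A9, SLC1A4 and INPP5B for PSAT1, and AARS, GPT2 and MOCOS for PSPH. For the mitochondrial genes they were GARS, MARS and MOCOS for SHMT2, EIF2S2, SLC1A5 and TARS for MTHFD2, SLC7A11, CBS and ASNS for ALDH1L2 (r of 0.998 for SLC7A11), SH3RF3-AS1 and C9orf91 for MTHFD1L, and TSFM, TMEM147-AS1 and SLC25A16 for MTHFD2L. For the cytosolic genes they were CD320, RUVBL2 and RANBP1 for MTHFD1 (r of 0.996 for CD320) and WDR34, TCF19 and CCDC34 for SHMT1.

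Other genes of folate and serine handling were counted in 5 lists. The median log2 difference at 24 h was 0.32 for folate uptake and retention, 0.40 for mitochondrial import, 0.15 for other cytosolic enzymes, 0.16 for glycine cleavage and related steps and −0.08 for serine and glycine breakdown, against 0.05 over all tested genes. The counts of these short lists at 24 h stand beside shares over all tested genes of 32.4% that rose and 33% that fell in KO, 33% that rose and 32.4% that fell in WT, and 17.7% higher and 12.1% lower for the difference. At 24 h, of the 5 tested genes of folate uptake and retention, 3 rose and 2 fell in KO and likewise in WT, and the difference was called higher for 3 and lower for 0. SLC19A1, the reduced folate carrier, rose 3.89-fold in KO and 2.66-fold in WT, with a log2 difference of 0.54 ± 0.13. For FPGS, which retains folate by adding glutamates, the difference was 0.27 ± 0.07. SLC46A1, the proton-coupled folate carrier, had 0.32 ± 0.11, a call lost by DESeq2 (adjusted p = 0.054) and without untreated WT replicate 1, untreated KO replicate 1 or 24 h WT replicate 3. FOLR1, a folate receptor, had 2.13 ± 0.382 CPM in KO at 24 h, against 27.3 ± 4.40 CPM in untreated KO, and 1.2 ± 0.247 CPM in WT at 24 h, against 24.0 ± 2.72 CPM in untreated WT. Its difference of 0.62 ± 0.32 did not pass.

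Of 4 genes that bring serine or folate into mitochondria, all 4 had a higher response in KO than in WT at 24 h, where 17.7% of all tested genes did. SFXN2 rose by 1.2 ± 0.09 in KO and 0.55 ± 0.08 in WT, and SFXN3 fell by 0.61 ± 0.04 in KO and by 1.14 ± 0.05 in WT. SFXN1, a mitochondrial serine transporter, stood at −0.04 ± 0.03 in KO, which did not pass, and fell by 0.31 ± 0.03 in WT. The difference for SLC25A32, the mitochondrial folate carrier, was 0.13 ± 0.05 (edgeR adjusted p = 0.032), and its call was lost under RLE scaling, DESeq2, no filter and 9 of 12 omissions of a library.

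Of 10 other cytosolic folate enzymes, 7 rose and 2 fell in KO at 24 h and 5 rose and 3 fell in WT, with the difference higher for 3 and lower for 0. Against 32.4% and 33% of all tested genes that rose and fell in KO, 33% and 32.4% in WT, and 17.7% higher for the difference, the WT counts were near the background. TYMS, thymidylate synthase, had 342 ± 1.06 CPM in KO at 24 h, against 217 ± 12.1 CPM in untreated KO, and 271 ± 9.92 CPM in WT at 24 h, against 262 ± 14.1 CPM in untreated WT. Its difference was 0.62 ± 0.05 (edgeR adjusted p = 2.5e-13). ATIC, an enzyme of purine synthesis, rose by 1.22 ± 0.04 in KO and by 1.01 ± 0.04 in WT, and its difference of 0.21 ± 0.06 was not called without untreated WT replicate 1 or untreated KO replicate 2. FTCD, at under 4 CPM, fell in both genotypes.

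Of 5 tested mitochondrial genes of glycine cleavage and related folate steps, 3 rose and 2 fell in KO at 24 h, and 1 rose and 2 fell in WT. Of all tested genes 32.4% rose and 33% fell in KO and 33% rose and 32.4% fell in WT, so the WT counts were near the background. The difference was called higher for 2 and lower for 0 of the 5, beside 17.7% and 12.1% of all tested genes. GCSH, the lipoyl carrier of glycine cleavage, rose by 1.12 ± 0.05 in KO and by 0.84 ± 0.05 in WT, and its difference of 0.28 ± 0.08 was not called without untreated WT replicate 1 or 24 h KO replicate 3. The difference for DLD was 0.16 ± 0.06, and its call was lost in 11 of 12 omissions of a library. AMT fell by 1.03 ± 0.22 in KO and by 0.95 ± 0.20 in WT, and SARDH fell by 0.75 ± 0.16 and 0.97 ± 0.17. Of 3 tested genes that break down or racemise serine and glycine, SDSL was the gene with a lower response in KO: 0.23 ± 0.12, which did not pass, beside 0.76 ± 0.12 in WT, with a difference of −0.53 ± 0.17 that was not called without untreated KO replicate 3. GCAT rose by 1.90 ± 0.11 in KO and by 1.72 ± 0.11 in WT, and SRR fell by 0.38 ± 0.14 and 0.30 ± 0.13. Those SRR calls were lost in 3 of 6 omissions in KO and in 4 of 6 in WT.

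Reads shared with other loci could touch some of these values. The 14 rows for pseudogenes of the members held at most 116 counts over all 36 libraries, and none was tested. Exons of 6 members overlap genes on the other strand in GENCODE 29, among them C12orf45 for ALDH1L2, SMCR8 for SHMT1 and ZBTB25 for MTHFD1, with 13778, 37365 and 12443 counts in all. Libraries were directional per the labels, and whether the quantification used strand was not stated in what was used here, so the part of such reads in the low KO level of ALDH1L2 was not tested. In GRCh38 the member genes lie at chr1:119711934-119744215 for PHGDH (ENSG00000092621.11), chr9:78297143-78330093 for PSAT1 (ENSG00000135069.13), chr7:56011051-56051604 for PSPH (ENSG00000146733.13), chr12:57229327-57234935 for SHMT2 (ENSG00000182199.10), chr2:74198562-74217565 for MTHFD2 (ENSG00000065911.11) and chr4:74114174-74303099 for MTHFD2L (ENSG00000163738.18). The others lie at chr6:150865549-151101887 for MTHFD1L (ENSG00000120254.15), chr12:105019784-105084577 for ALDH1L2 (ENSG00000136010.13), chr17:18327873-18363550 for SHMT1 (ENSG00000176974.18) and chr14:64388031-64463457 for MTHFD1 (ENSG00000100714.15). Positions are from GENCODE 29 for the 8 members whose versioned identifiers matched it and from RefSeq (GRCh38.p14) for PHGDH and SHMT1.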

How the data were processed

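RNA was measured in 36 libraries of 12 groups. The deposited table holds expected counts, which the authors made with Salmon 0.9.1 on GRCh38 after FastQC 0.11.5, per the submitters' processing notes. The TPM table was deposited by the authors too. The annotation release and the step from transcripts to genes are not given in the sources used here.

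Expected counts were rounded, filtered by filterByExpr (19043 of 57665 rows kept) and scaled by TMM. A mean per group was fitted to all 36 libraries with edgeR 4.0.16 (limma 3.58.1, R 4.3.3) and 16 contrasts were tested by the quasi-likelihood F-test, with Benjamini-Hochberg adjustment over all tested genes within a contrast. The fit was tested on simulated data. Levels between genes used deposited TPM of 33 libraries. Ratios used log2 CPM with a prior count of 2.

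Named genes are all members, ATF4, up to 3 called genes per list and rule (largest WT change and largest difference at 24 h), and 3 genes of the highest r per member at a mean of at least 1 CPM; some genes that this rule names are not reported here. Members and lists were chosen with earlier results of these data known. Alternatives were RLE scaling, no TMM, DESeq2 1.42.0, no filter, only the groups of the contrast and a replicate block. Others were limma on log2(TPM + 1) for the WT changes only, a prior count of 0.5 and each library left out. No replicate pair agreed within sampling noise (chi-square per degree of freedom from 1.34 to 2.63).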

Additional observations from a re-analysis of the deposited data

Results flagged for a closer look

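The responses of KO and WT cells differed by the interaction test of edgeR for 9 of the 10 genes at 1 or more times, and each such difference (KO change minus WT change, log2) is given here. PHGDH had −0.84 at 4 h, −1.94 at 8 h, −3.90 at 16 h and −4.11 at 24 h. PSAT1 had −1.91, −3.36, −2.94 and −2.71 at those times, and PSPH had −2.03, −2.66, −1.38 and −1.58. ALDH1L2 had −1.94, −2.34, −3.33 and −2.87, and MTHFD1L had −0.27, −0.36, −0.46 and −0.53. SHMT2 had −0.37 at 2 h and then −1.02, −1.20, −1.32 and −1.27, and MTHFD2 had −0.57 at 2 h and then −1.06, −0.90, −0.86 and −0.96. The positive differences were those of SHMT1, at 0.32 at 16 h and 0.38 at 24 h, and of MTHFD1, at 0.15 at 8 h, 0.51 at 16 h and 0.55 at 24 h. All 5 times share the untreated libraries of both genotypes.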

How the results depend on the processing

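Under RLE scaling, totals without TMM, DESeq2, no filter, a fit of only the contrast's groups and limma on log2(TPM + 1), no member's change reversed its sign. The limma fit covered only the WT changes from 0 h, because the untreated KO columns of TPM did not match the counts. Most calls kept their side of the threshold, and the cause of the others was not tested. Without the filter 165 genes were called for the difference at 2 h, against 57, and limma on TPM called 1936 genes in WT at 2 h, against 4312. With only the contrast's groups, 1 member was called for the difference at 2 h, against 2. MTHFD2L in KO at 16 h was lost with total counts and DESeq2 (adjusted p = 0.052 and 0.080), and in WT at 4 h with total counts, DESeq2, no filter and TPM (adjusted p = 0.067, 0.076, 0.081 and 0.098). SHMT1 in WT at 8 and 24 h and ALDH1L2 in WT at 2 h were lost with TPM in limma (adjusted p = 0.10, 0.11 and 0.40). SHMT1 in WT at 4 h was called with total counts in edgeR (adjusted p = 0.038) and without untreated WT replicate 3 (adjusted p = 0.047). The difference of MTHFD1 at 8 h was lost with total counts and with only the contrast's groups (0.12 and 0.11, edgeR adjusted p = 0.12 and 0.25), PSPH in KO at 4 h without the filter (edgeR adjusted p = 0.051), and the difference of SHMT1 at 16 h without the filter (edgeR adjusted p = 0.077).

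With 1 library left out at a time, members called ran from 1 to 2 in KO at 2 h and from 3 to 5 in KO at 4 h. Signs reversed only for values that were not called. In KO at 2 h these ranged from −0.069 to 0.042 for MTHFD2, from −0.15 to 0.013 for MTHFD2L, from −0.11 to 0.29 for ALDH1L2, from −0.13 to 0.16 for PSPH and from −0.0031 to 0.12 for MTHFD1. In KO at 4 h they ran from −0.059 to 0.0037 for SHMT2 and from −0.38 to 0.041 for ALDH1L2, and for ALDH1L2 in KO at 24 h from −0.25 to 0.18. In WT at 2 h they ranged from −0.053 to 0.022 for MTHFD1, from −0.030 to 0.10 for MTHFD2L and from −0.023 to 0.058 for SHMT1. The differences ran from −0.061 to 0.052 for MTHFD1L and from −0.37 to 0.031 for ALDH1L2 at 2 h, from −0.020 to 0.080 for SHMT1 at 4 h, and from −0.21 to 0.13 for AMT and from −0.25 to 0.048 for SRR at 24 h.

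With the replicate number as a block, members called stayed at 9 for the difference at 24 h. The block changed no call among the values reported. In 0 of 11 comparisons did all 3 same-numbered pairs correlate above 0.1, although 26 of 36 libraries correlated best with their own number. Whether libraries of the same number share a batch was not tested. DESeq2 gave no adjusted p for 5 members at 2 h of the difference. Depth limits the KO levels of ALDH1L2 most.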
